A study of Mus musculus with 10 samples.

Results

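The Shc family comprises 4 mouse genes, Shc1, Shc2, Shc3 and Shc4, and their transcripts were followed through sarcomas of 2 mouse models. The members were taken as the rows for these 4 symbols among the 56750 features of the deposited count table. Shc proteins are adaptors without catalytic activity. They bind phosphorylated tyrosines of activated receptors through a PTB and an SH2 domain, become phosphorylated themselves, and recruit Grb2 and Sos, which load Ras with GTP and feed the ERK cascade. Shc1 (ShcA) is expressed in most tissues, whereas Shc2 (ShcB) and Shc3 (ShcC) are known mainly from neurons and Shc4 (ShcD) from brain, muscle and melanoma.

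Bulk RNA was sequenced from 3 dFLEx tumors (170019, 170024 and 170025) and 2 KP tumors (3800 and 3802). dFLEx mice carried 1 copy of a transgene (genotype dFLEx CDS +/-) at the Rosa26 locus, in which the CAG promoter drives an HA-tagged CIC::DUX4 after recombination by both Cre and FLPE. CIC is a transcriptional repressor, and its fusion to the C-terminus of DUX4 acts as an activator at CIC sites. The study started dFLEx sarcomas at 6 to 12 weeks of age, by electroporating plasmids for both recombinases into hind limb muscle. KP tumors came from mice of the KP model, whose genotype includes a floxed Trp53 allele (p53fl/fl). For the KP sarcomas the study refers to earlier work, and their induction and the age of those mice are not given in the sources used here. Both groups therefore carry recombined alleles, and they differ in every initiating lesion, so the comparison is between tumor models and not between presence and absence of the fusion in 1 model.

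The RNA of each tumor was divided into duplicates, of which 9 libraries were analysed here, 1 of them from 3802. Library totals ran from 20503474 to 46302223 counts, and the library of 3802 had the lowest total and the most features with a count (36904, against 24280 to 31768 in the other 8). At these totals 3 counts correspond to 0.0648 to 0.146 CPM (reads of a gene relative to the library total), and every member lay above that in every library. The CIC::DUX4 contig had 105, 202 and 423 CPM in the dFLEx tumors, no count in 3800 and 6 counts in 3802, so each tumor carried the transcript its label implies, apart from those few counts. Levels below are CPM of the summed libraries of a tumor, scaled by TMM. Where paralogs are compared with each other, CPM was divided by the exonic length of the gene in kilobases.

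Shc4 was the member with the widest separation between the models. It lies on the minus strand of chromosome 2 (GRCm39, chr2:125469367-125566068, ENSMUSG00000035109) and has 8263 exonic bases. Tumors 170019, 170024 and 170025 had 127, 236 and 578 CPM, while the KP tumors 3800 and 3802 had 5.52 and 2.32 CPM. The dFLEx tumors were all above the KP tumors, and the nearest values of the groups were 23.1-fold apart. The means were 314 ± 235 CPM (SD, n = 3) and 3.92 ± 2.27 CPM (SD, n = 2). In edgeR's quasi-likelihood test on tumor sums the log2 fold change of dFLEx against KP was 6.32 ± 1.04 (SE, 95% confidence interval 3.92 to 8.71), with a p of 0.000306 and an adjusted p of 0.0784 over all genes tested, so Shc4 did not pass the threshold of 0.05.

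Shc3 also separated the models, with a smaller gap between them. It lies on the minus strand of chromosome 13 (chr13:51585077-51723523, ENSMUSG00000021448) and has 4654 exonic bases. Tumors 170019, 170024 and 170025 had 30.1, 62.7 and 333 CPM, while the KP tumors 3800 and 3802 had 1.05 and 2.80 CPM. The groups did not overlap here either, and their nearest values were 10.7-fold apart. The log2 fold change was 6.21 ± 1.37 (SE, 95% confidence interval 3.04 to 9.38), with a p of 0.00199 and an adjusted p of 0.133 in edgeR. The KP values rest on few reads, with 37 and 41 counts in the libraries of 3800 and 69 in that of 3802, whereas a dFLEx library held 487 to 15311 counts. The study lists Shc3 and Shc4 among known fusion targets and reports their expression in these same dFLEx tumors, compared with KP tumors. The direction of both genes here is therefore not independent evidence.

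Shc2 was the least abundant member in each dFLEx tumor. It lies on the minus strand of chromosome 10 (chr10:79453885-79473752, ENSMUSG00000020312) and has 5426 exonic bases. Tumors 170019, 170024 and 170025 had 8.81, 11.3 and 10.9 CPM, while the KP tumors 3800 and 3802 had 3.39 and 3.54 CPM. The groups did not overlap, and the spread within each was small (1.29-fold in dFLEx and 1.04-fold in KP). The log2 fold change was 1.58 ± 0.61 (SE, 95% confidence interval 0.18 to 2.98), with a p of 0.0317 and an adjusted p of 0.405 in edgeR.

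Shc1 did not separate the models. It lies on the plus strand of chromosome 3 (chr3:89325750-89337334, ENSMUSG00000042626) and has 5645 exonic bases. Tumors 170019, 170024 and 170025 had 95.8, 110.3 and 303 CPM, while the KP tumors 3800 and 3802 had 312 and 49.9 CPM. The highest and the lowest tumor were both KP. The log2 fold change was -0.09 ± 0.87 (SE, adjusted p = 0.988 in edgeR), and its 95% confidence interval of -2.11 to 1.93 includes changes of several fold in either direction. The KP tumors alone differed 6.26-fold, more than the dFLEx tumors did (3.17-fold), and the value was 1.94 without 3800 and -0.86 without 3802.

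**Figure D1:**
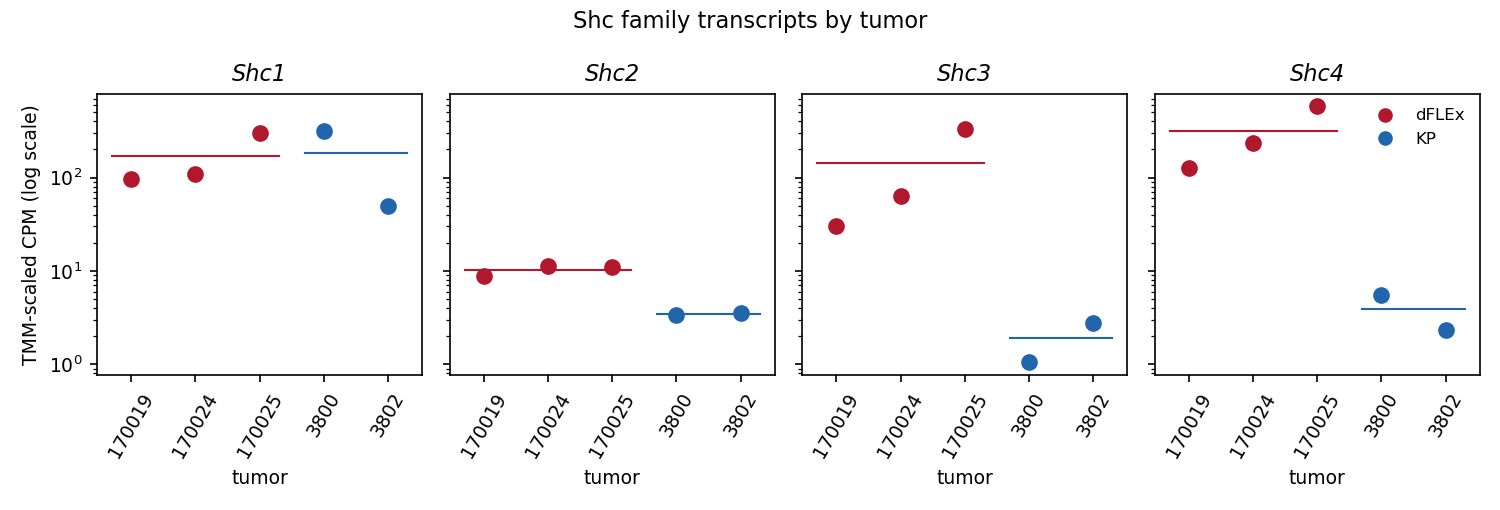
TMM-scaled CPM (log axis) of each Shc gene in the 3 dFLEx and 2 KP tumors; a point is 1 tumor with its libraries summed, and a line is the group mean. Shc3 and Shc4 lie at 30.1 to 578 CPM in dFLEx tumors and at 1.05 to 5.52 CPM in KP tumors, whereas the groups overlap for Shc1.

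None of the 4 members was among the genes called at an adjusted p under 0.05. Across all 24743 genes tested edgeR called 45, which is 0.182%, and 25 of them (0.101%) were higher in dFLEx. At an unadjusted p under 0.05, Shc2, Shc3 and Shc4 were higher, beside 5.65% of all genes higher and 4.93% lower. For the same 3 members every dFLEx tumor was above every KP tumor, which held for 13.7% of all genes tested, while the opposite order held for 11.7%. The separation of Shc2 is thus of a common kind. The fold changes of the other pair were rarer, since 151 genes (0.61%) had a log2 fold change at least that of Shc4 and 162 genes (0.655%) at least that of Shc3. The median over all genes tested was -0.18.

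The call on Shc3 and Shc4 differed between fits. In edgeR on tumor sums, without a filter on low counts both were called (adjusted p = 6.13e-07 and 7.08e-07), as were 880 of 44382 genes in all. With a mean of at least 1 CPM only Shc4 was called (adjusted p = 0.0451), where 80 of 15364 genes were. The same held with upper quartile scaling (adjusted p = 0.0496), where 50 of 24743 genes were called. With DESeq2 on the same tumor sums both were higher at adjusted p of 5.99e-12 (Shc4) and 5.7e-08 (Shc3), where 3.55% of all genes were called higher and 2.70% lower. With limma-voom and the tumor as a random effect they were again called (adjusted p = 0.00237 and 0.0486), where 1.61% of all genes were called higher and 1.17% lower. With edgeR on the 9 libraries as if independent, Shc4, Shc3 and Shc2 were called (adjusted p = 0.000514, 0.00568 and 0.0055), where 8.24% of all genes were called higher. That fit counts each split of 1 RNA as a separate sample. In bulk tumor RNA a larger number of expressing cells and more RNA per cell cannot be told apart, which applies to each of these differences.

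The makeup of the Shc family differed between the models. Per kilobase, Shc1 made up 42.0%, 30.7% and 27.3% of the summed family level in 170019, 170024 and 170025, against 97.3% and 85.2% in 3800 and 3802. The means were 33.3% ± 7.68 (SD, n = 3) and 91.3% ± 8.58 (SD, n = 2). The share of Shc4 was 38.1%, 44.9% and 35.5% in dFLEx, against 1.18% and 2.70% in KP. The share of Shc3 was 16.0%, 21.2% and 36.2% in dFLEx, against 0.396% and 5.81% in KP. For each of these 3 paralogs the shares of the groups did not overlap, and the exact two-sided permutation test over tumors gave p = 0.2, the smallest p that 3 tumors against 2 allow (0.267 after adjustment over the 4 shares). The shares of a tumor add up to the whole, so these are not separate differences. The lower Shc1 share is the counterpart of the higher Shc3 and Shc4 shares, and the Shc1 level itself overlapped between the groups. The share of Shc2 stayed small in both models, with 4.01%, 3.28% and 1.02% in dFLEx and 1.10% and 6.28% in KP, and overlapped (exact permutation p = 0.6), with the sign of its difference resting on 3802 (-0.921 points, and 1.67 points without it).

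Shc3 and Shc4 together formed 54.0%, 66.0% and 71.7% of the family in the dFLEx tumors and 1.57% and 8.52% in the KP tumors. The leading paralog was not the same in each dFLEx tumor. In 170019 Shc1 stood first at 17.0 CPM per kilobase, with Shc4 at 15.4, Shc3 at 6.46 and Shc2 at 1.62. In 170024 Shc4 led at 28.6 CPM per kilobase over Shc1 at 19.5. In 170025 Shc3 and Shc4 stood nearly level at 71.5 and 69.9 CPM per kilobase, above Shc1 at 53.8. Averaged over the dFLEx tumors, Shc4 had 38.0 ± 28.4, Shc3 30.5 ± 35.7 and Shc1 30.1 ± 20.5 CPM per kilobase (SD, n = 3), while Shc2 at 1.91 ± 0.25 was below all of them in each tumor. Within 170019, 170024 and 170025, Shc4 was 2.39, 2.12 and 0.978 times Shc3 and 0.908, 1.46 and 1.30 times Shc1. Shc3 was 0.38, 0.689 and 1.33 times Shc1, so no order of these 3 paralogs held in every dFLEx tumor.

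In both KP tumors Shc1 was first by a wide margin, at 55.3 and 8.83 CPM per kilobase, 82.7 and 31.5 times the level of Shc4. The other 3 members were each below 1 CPM per kilobase in both tumors. Their means were 0.638 ± 0.0195 (Shc2), 0.474 ± 0.274 (Shc4) and 0.414 ± 0.267 CPM per kilobase (Shc3, each SD, n = 2), and their order changed between the tumors. The order in 3800 was Shc4, Shc2 and Shc3, and in 3802 it was Shc2, Shc3 and Shc4.

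**Figure D2:**
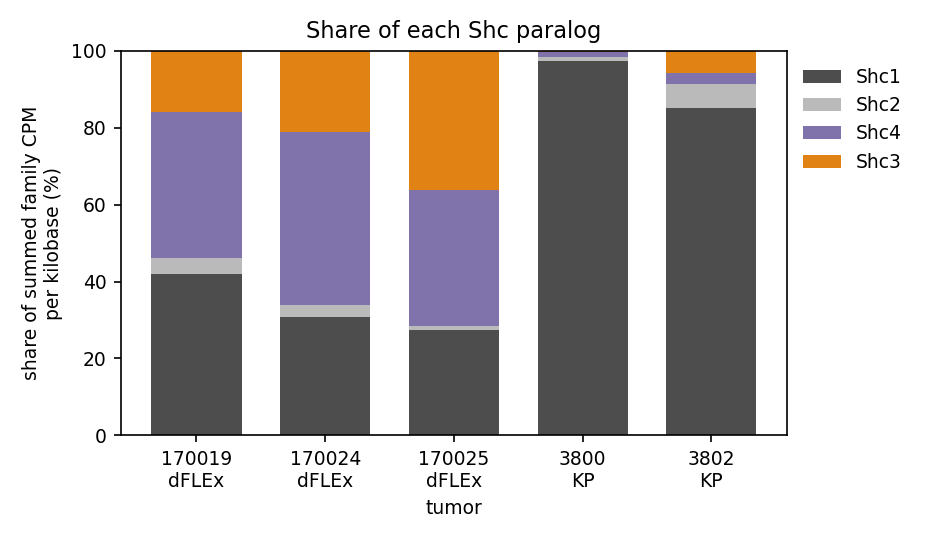
Stacked bars give the share (%) of each Shc paralog in the summed family CPM per kilobase of each tumor. Shc3 and Shc4 fill 54.0% to 71.7% of the dFLEx bars and 1.57% to 8.52% of the KP bars, which are mostly Shc1.

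The sum of the family overlapped between the models. It was 40.5, 63.7 and 197 CPM per kilobase in the dFLEx tumors and 56.8 and 10.4 CPM per kilobase in the KP tumors. The ratio of the means was 2.99, with an exact permutation p of 0.4, and on the log2 scale it was 1.58, or 3.28 without 3800 and 0.63 without 170025. Tumor 3800 had a larger Shc family total than 170019, nearly all of it Shc1.

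The low KP levels of Shc2, Shc3 and Shc4 were set beside a background measured on the same scale. Over 1407 olfactory and vomeronasal receptor genes, sensory receptors not known from sarcomas, the pooled level was 0.107 CPM per kilobase in 3802 and 0.00686 in 3800. That background equals 38.0% of the Shc4 level, 17.7% of the Shc3 level and 16.4% of the Shc2 level in 3802, but 1.03%, 3.05% and 1.10% in 3800, and at most 1.48% for any member in a dFLEx tumor. With it subtracted, Shc4 stood at 5.46 and 1.44 CPM and Shc3 at 1.02 and 2.31 CPM in 3800 and 3802. Both were then still below every dFLEx tumor, the lowest of which, 170019, had 29.9 CPM of Shc3 and 127 CPM of Shc4.

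Within the dFLEx group the members varied by different amounts. Relative to 170019, the level in 170025 was 11.1-fold for Shc3, 4.54-fold for Shc4, 3.17-fold for Shc1 and 1.24-fold for Shc2. The CIC::DUX4 contig was 4.01-fold on the same scale. Per kilobase, Shc4 stood at 0.73, 0.709 and 0.825 times the contig in 170019, 170024 and 170025. The corresponding ratios of Shc3 were 0.306, 0.334 and 0.843, those of Shc1 were 0.804, 0.484 and 0.634, and those of Shc2 were 0.0769, 0.0518 and 0.0238. The ratios of Shc4 and Shc1 spanned narrower ranges than that of Shc3. With 3 tumors no relation was tested, and the duplicates of a tumor differed 1.01-fold to 1.53-fold over 16 pairs of member values (median 1.12-fold), which is the spread of splits of 1 RNA.

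**Figure D3:**
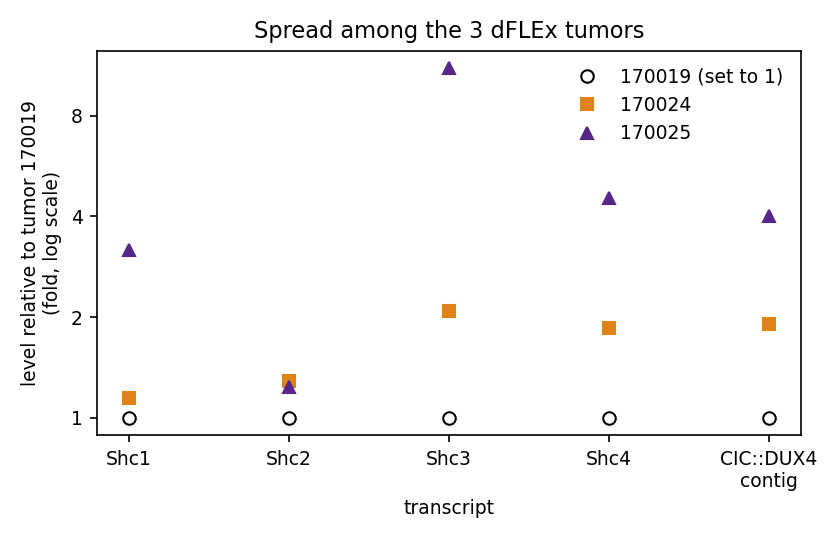
Level of each Shc gene and of the CIC::DUX4 contig in the dFLEx tumors as a fold of tumor 170019 (log axis); each marker is 1 tumor. In 170025 Shc3 is 11.1-fold, Shc4 4.54-fold and the contig 4.01-fold above 170019, whereas Shc2 is 1.24-fold.

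The pattern of Shc1, high in 170025 and 3800, was common. Of 15264 genes whose mean reached 1 CPM, 33.4% had both of these tumors above the other 3, and 15.3% had both below. These were also the tumors with the fewest features with a count in a library (24280 to 25572, against 29186 to 36904 in the others). The part of that difference in the level of Shc1 was not tested. The genes nearest to Shc1 over the 5 tumors, by the root mean square difference of centred log2(CPM + 0.1), were Exoc2 (0.06), Virma (0.07), Cul1 (0.09), Lman1 (0.09) and Elmo2 (0.10), out of 13751 genes compared. Exoc2 encodes a subunit of the exocyst and Cul1 the scaffold of SCF ubiquitin ligases.

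For Shc4 the nearest genes were Sema5b (0.31), Garem2 (0.31), Grid2ip (0.38), Ngfr (0.38) and Sertm1 (0.42). Ngfr, the p75 neurotrophin receptor, had 121, 201 and 603 CPM in 170019, 170024 and 170025, against 3.44 and 1.14 CPM in 3800 and 3802. Garem2, itself a Grb2-binding adaptor, had 20.4, 29.8 and 80.2 CPM against 0.43 and 0.325 CPM. The genes nearest to Shc3 were Rasd2 (0.34), Amph (0.35), Stxbp6 (0.55), Ano4 (0.60) and Sertm1 (0.61). Rasd2, a Ras-related GTPase, had 15.7, 44.9 and 133 CPM against 0.349 and 1.06 CPM. By this measure Shc3 ranked 40 in likeness to Shc4, and Shc4 ranked 39 in likeness to Shc3. The nearest gene to Shc2 was Irf2bp1 (0.06), with 78.6, 103 and 103 CPM against 32.4 and 35.8 CPM.

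Receptors known to bind Shc proteins had fold changes in both directions. Of 24 receptor genes, 13 were higher and 11 lower in dFLEx, none passed an adjusted p of 0.05 in edgeR, and 5 higher and 4 lower had an unadjusted p under 0.05, beside 5.65% and 4.93% of all genes. DESeq2 on tumor sums called 3 higher (Ret, Alk and Fgfr3) and 3 lower (Met, Erbb3 and Itgb4), beside 3.55% and 2.70% of all genes. limma-voom called Ret higher and Met lower, beside 1.61% and 1.17% of all genes. edgeR on 9 libraries called 5 higher and 4 lower, beside 8.24% and 8.88% of all genes. The median log2 fold change was 0.13, beside -0.18 over all genes, and the range was -4.27 to 4.99. Every dFLEx tumor was above both KP tumors for 6 receptors and below both for 5, beside 13.7% and 11.7% of all genes. Ret, the receptor for GDNF family ligands, had 45.0, 95.7 and 262 CPM in dFLEx and 7.72 and 0.65 CPM in KP (log2 fold change 4.99 ± 1.34 SE, adjusted p = 0.206 in edgeR). Alk, a receptor tyrosine kinase of developing neurons, was at 3.90 ± 1.32 and Fgfr3 at 3.51 ± 0.79 on the log2 scale. Met, the receptor for hepatocyte growth factor, had 1.22, 4.25 and 5.62 CPM in dFLEx and 126 and 16.7 CPM in KP (log2 fold change -4.27 ± 1.01 SE, adjusted p = 0.159 in edgeR). Erbb3 was at -2.55 ± 0.66 and Il2rb at -1.55 ± 0.72. Ntrk2 and Ntrk3, neurotrophin receptors of neurons, overlapped between the groups, with log2 fold changes of 0.68 ± 0.80 and -1.29 ± 1.47.

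Partners that act after Shc were the next list. Of 24 partner genes, 10 were higher and 14 lower, and the median log2 fold change was -0.24. In edgeR on tumor sums none had an adjusted or an unadjusted p under 0.05. DESeq2 on tumor sums and limma-voom called none, and edgeR on 9 libraries called 1 lower, beside 8.88% of all genes. Grb2, the adaptor that Shc proteins recruit, had 84.2, 107 and 135 CPM in dFLEx and 175 and 101 CPM in KP, and the groups overlapped. Sos1 (-0.93 ± 0.89) and Sos2 (-0.19 ± 0.74), the exchange factors for Ras, overlapped as well. Every dFLEx tumor was above both KP tumors for 1 partner and below both for 1, beside 13.7% and 11.7% of all genes. They were Gab1 (1.21 ± 0.70), a docking protein, and Nras (-0.66 ± 0.50), a Ras GTPase.

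Other adaptors of receptor tyrosine kinases gave a second family with an uneven pattern. Of 28 genes 27 were tested, 13 with a log2 fold change above 0 and 13 below, with a median of 0.00. edgeR called none, with 4 higher and 1 lower at an unadjusted p under 0.05, beside 5.65% and 4.93% of all genes. DESeq2 on tumor sums called Dok5 and Sh2b2 higher and none lower, beside 3.55% and 2.70% of all genes. limma-voom called none. edgeR on 9 libraries called 5 higher and 3 lower, beside 8.24% and 8.88% of all genes. The highest was Dok5, a docking protein of the insulin and Ret receptors that is expressed in neurons. Its level was 29.8, 47.9 and 49.7 CPM in dFLEx and 0.296 and 1.18 CPM in KP (log2 fold change 5.88 ± 0.95 SE, adjusted p = 0.0784 in edgeR). Dok4 was at 2.27 ± 0.91, while its relatives Dok1 (-1.56 ± 0.58) and Dok6 (-1.18 ± 0.85) had values below 0, with no overlap between the groups for any of these. Of the 27 tested adaptors, 7 were higher and 2 lower in every dFLEx tumor than in both KP tumors. The shares of all genes were 13.7% and 11.7%. Sh2b2, an adaptor of insulin and cytokine receptors, was at 3.21 ± 0.98.

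**Figure D4:**
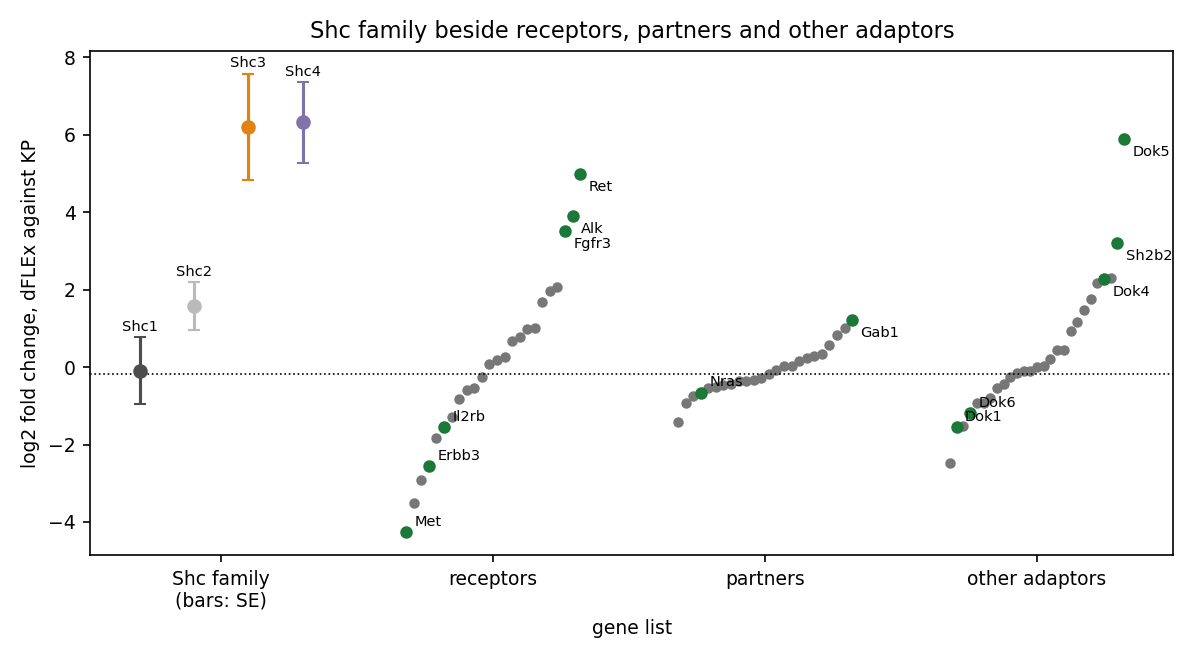
Log2 fold change of dFLEx against KP for the Shc genes (bars, SE) and for 24 receptors, 24 partners and 27 other adaptors, each point 1 gene and named points in green; the dotted line is the median of all genes tested (-0.18). Shc3 (6.21) and Shc4 (6.32) lie above every gene of the 3 lists, of which Dok5 (5.88) is the highest.

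Cell types in which Shc2, Shc3 and Shc4 are known were followed through marker lists. The summed level of 8 neuron markers was 7.46 to 13.7 CPM in dFLEx and 155 to 614 CPM in KP, with Syt1 and Elavl4 below 1 CPM in every dFLEx tumor. Nefm (317 and 75.3 CPM) and Stmn2 (279 and 61.7 CPM) made up most of the sum in 3800 and 3802, while Rbfox3, Snap25, Syt1, Elavl3 and Elavl4 overlapped between the groups. The summed level of 6 melanocyte markers was 2.36 to 3.36 CPM in dFLEx and 0.779 to 4.59 CPM in KP, and Tyr had no count in dFLEx. Schwann cell markers (7 genes) summed to 59.2 to 96.1 CPM in dFLEx and 13.2 to 22.5 CPM in KP, and the 6 tested had log2 fold changes above 0 (3 at an unadjusted p under 0.05, beside 5.65% of all genes higher), but Sox10 and Pmp2 were below 1 CPM in every dFLEx tumor. Muscle markers (9 genes) summed to 8168, 32607 and 9357 CPM in 170019, 170024 and 170025 and to 1613 to 4069.8 CPM in KP, and all 9 log2 fold changes were above 0 (6 at an unadjusted p under 0.05, against the same 5.65%). Endothelial markers (8 genes) summed to 351, 415 and 606 CPM in the same dFLEx tumors and to 198 and 213 CPM in 3800 and 3802. Fibroblast markers (6 genes) summed to 2751, 5061 and 8997 CPM and to 2763 and 1684 CPM. Both sums were highest in 170025 and lowest of the dFLEx tumors in 170019, as Shc3 and Shc4 were. Muscle markers were highest in 170024. Col1a1 and Col1a2 made up most of the fibroblast sum. Dcn (438 and 228 CPM in 170019 and 170025), Lum (139.9 and 61.5 CPM) and Pdpn (80.2 and 61.7 CPM) were lower in 170025, and Fbln1 was higher. Of the endothelial markers, Emcn (44.0 and 26.7 CPM) and Cldn5 (103 and 25.7 CPM) were lower in 170025 than in 170019, and the others were higher. Macrophage markers (8 genes) summed to less in dFLEx, with 1066 to 1261 CPM against 2624 to 5249.9 CPM in KP. C1qa and Lyz2 made up most of these sums. Of the 8, 6 had log2 fold changes below 0, while Cd68 (0.24 ± 0.55) and Cd163 (0.79 ± 0.94) lay above 0. In single nuclei of dFLEx tumors, the study annotated clusters as tumor cells from target genes that included Shc3 and Shc4. It set them apart from clusters of fibroblasts, pericytes, macrophages, endothelial cells and myocytes. The part of muscle, vessel, fibroblast or nerve sheath cells in the bulk Shc values was not tested here.

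The genes around each member were examined to see how far the difference extended. Within 100 kb of Shc4 there were 3 protein-coding genes, with log2 fold changes of -0.68 ± 0.60 (Eid1), 0.65 ± 0.89 (Cep152) and 0.12 ± 0.82 (Secisbp2l). Within 100 kb of Shc3 there were also 3, S1pr3 (1.71 ± 1.07), Cks2 (0.39 ± 0.56) and Secisbp2 (-0.12 ± 0.61). The groups overlapped for all 6 of them. Shc1 had 12 tested neighbours between -1.58 and 2.05 and Shc2 had 11 between -1.56 and 1.67. Near Shc1, 3 were higher and 3 lower in every dFLEx tumor than in both KP tumors. Near Shc2, 2 were higher and 1 lower in this way, beside 13.7% and 11.7% of all genes. On tumor sums none of the neighbours of Shc1 and Shc2 was called by edgeR or DESeq2. At an unadjusted p under 0.05 in edgeR, Efna3 was higher and Pygo2 lower near Shc1, and Plpp2 was lower near Shc2, beside 5.65% of all genes higher and 4.93% lower. limma-voom called Plpp2 lower, beside 1.17% of all genes. edgeR on 9 libraries called Efna3 and Hcn2 higher and Pygo2 and Plpp2 lower, beside 8.24% and 8.88% of all genes. For the neighbours of Shc3 and Shc4 none of these fits made a call, and 0 had an unadjusted p under 0.05. Eid1 lies inside Shc4 on the opposite strand and shares 527 exonic bases (6.38%) with it. Counting ignored strand and left out reads over more than 1 gene, so these bases add to neither.

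**Figure D5:**
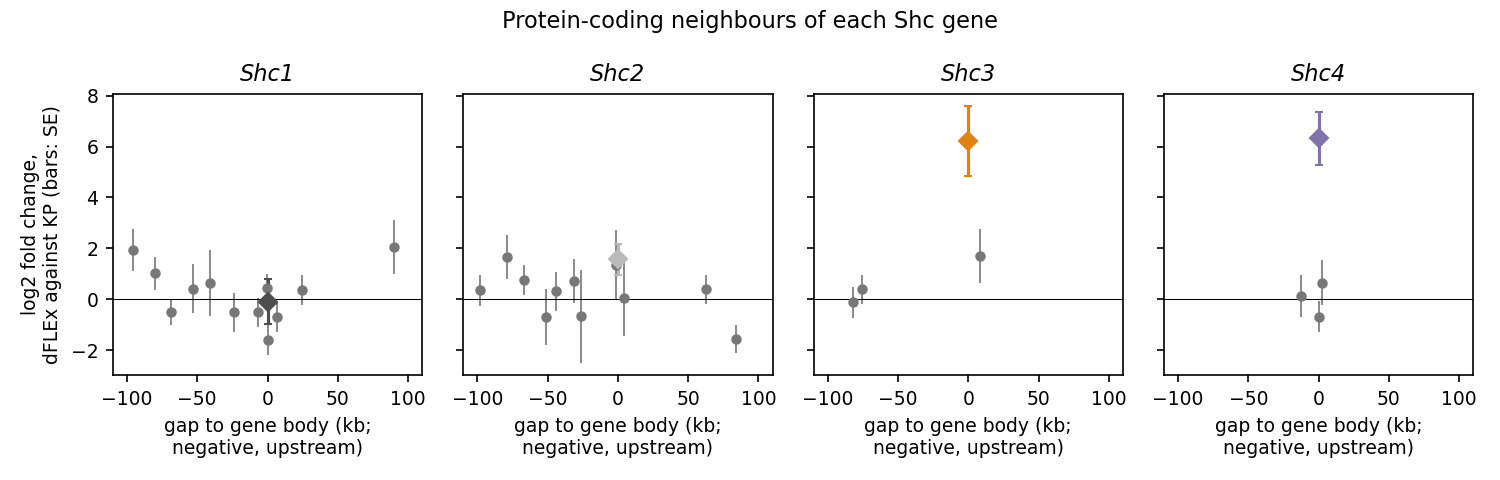
Log2 fold change of dFLEx against KP (bars, SE) for each Shc gene (diamond) and for the tested protein-coding genes within 100 kb, by the gap from the gene body in kb (negative, upstream). Shc3 and Shc4 stand at 6.21 and 6.32, and their neighbours lie between -0.68 and 1.71.

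Promoter sequence was read because the study names Shc4 as a target of the fusion. CIC binds octamers, and the letters TGAATGAA, TGAATGGA, TCAATGAA and TCAATGGA were searched on both strands in windows from 250 bases before to 50 bases after annotated starts (RefSeq, GRCm38.p6, not the build of the counts). A window was given for Shc4, Shc1 (2 starts) and Shc2, and none for Shc3. Shc4 held 2 matches that do not overlap, TGAATGGA read on the strand opposite to the gene at bases -25 to -18 and TGAATGAA on the same opposite strand at bases 30 to 37 from the start. The 250 bases before the start (chr2:125724149-125724398, minus strand) and the 30 bases around the second match (chr2:125724101-125724130, minus strand) are shown 5′ to 3′ on the strand of the gene, with the matches in capitals.
Shc4 before the start: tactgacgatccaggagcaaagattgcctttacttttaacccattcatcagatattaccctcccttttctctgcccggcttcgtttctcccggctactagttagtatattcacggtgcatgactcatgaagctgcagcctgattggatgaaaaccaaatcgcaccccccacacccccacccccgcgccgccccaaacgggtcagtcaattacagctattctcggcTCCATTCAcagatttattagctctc
Shc4 after the start: attcggcaaagTTCATTCAtaaaaatttca
Shc2 before the start: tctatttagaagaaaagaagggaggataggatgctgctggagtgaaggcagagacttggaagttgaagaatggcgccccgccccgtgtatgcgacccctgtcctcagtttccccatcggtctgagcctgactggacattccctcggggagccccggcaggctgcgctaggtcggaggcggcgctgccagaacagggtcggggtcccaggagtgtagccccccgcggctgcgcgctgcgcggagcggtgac

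The Shc2 stretch (chr10:79637919-79638168, minus strand) is shown for comparison and, like the Shc1 windows, holds none of the 4 octamers. Of 32851 windows of this length, 1.21% held TGAATGGA, 1.30% held TGAATGAA, 0.749% held TCAATGAA and 0.67% held TCAATGGA. Any of the 4 occurred in 3.84%, and 2 or more of them in 26 windows (0.0791%), that of Shc4 included; this count was chosen after the matches in Shc4 were seen. GC content was 47.3% in the window of Shc4 and 65.7% in that of Shc2. A match describes letters only, and no binding was measured in these samples.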

How the data were processed

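The authors trimmed reads with Trimmomatic (version 0.39), aligned them with STAR (version 2.7.10a) to GRCm39 (mm39) extended by a contig with the CIC::DUX4 construct, and deposited raw counts per gene from featureCounts (version 2.0.3). Per the file headers each mate of a pair was counted, strand was ignored, and reads with several alignments or over several genes were left out. Because both mates were counted, library totals overstate the molecules read, and the limit of 3 counts covers counting error only.

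Symbols came from GENCODE M39 (56017 of 56750 features, 98.7%). Libraries were summed by tumor, and the sums filtered with filterByExpr, scaled by TMM, and compared with edgeR (version 4.0.16, R 4.3.3) glmQLFit and glmQLFTest, with Benjamini-Hochberg adjustment over 24743 genes. The study describes DESeq2 with the same threshold of 0.05 without saying how duplicates entered. Standard errors were derived from the F statistic (the size of the log2 fold change over the root of F). Confidence intervals came from them and the total degrees of freedom of the test. That total adds a part estimated over all genes to the residual part, so the intervals do not rest on the values of 1 gene alone. The labels do not say whether tumors of a group came from separate litters or dates, and p-values measure the spread between these 5 tumors. Shares and sums used exact two-sided permutation tests over 10 splits in SciPy (version 1.17.1). The pipeline was tested on simulated data.

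Alternatives were other scalings and filters, DESeq2 (version 1.42.0), limma-voom (version 3.58.1), libraries as samples, the duplicate number as a block, 1 library per tumor and each tumor left out. Subtraction of a background from receptor genes was added after seeing the data. The members and gene lists were chosen with earlier results of these data known. Genes named from a list are up to 3 per direction with the largest change among those with no overlap between groups and a mean of at least 1 CPM. Ntrk2, Ntrk3, Grb2, Sos1, Sos2 and the markers are named for their role, and up to 5 nearest genes per member by likeness. Of the duplicates of 3802, the second was not analysed here. Some genes and alleles are not reported here.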

Additional observations from a re-analysis of the deposited data

How the results depend on the processing

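Adjusted p-values differed widely between fits, and the direction of Shc2, Shc3 and Shc4 was the same in every alternative run. The number of genes called (45 in edgeR on tumor sums) was 3344 with edgeR and 4828 with DESeq2 on 9 libraries, 1396 with DESeq2 on tumor sums, 543 with limma-voom and the tumor as a random effect, 880 without a filter and 80 with a mean of at least 1 CPM. It ranged from 0 to 414 with 1 tumor left out, 0 without 170019 (1939 at an unadjusted p under 0.05 in edgeR) or without 170024 (1414), 9 without 170025, 8 without 3800 and 414 without 3802; other tools were not run on these subsets.

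Shc4 passed the threshold at a log2 fold change of 6.12 (edgeR, 9 libraries), 6.09 (DESeq2, 9 libraries), 6.26 (DESeq2, tumor sums), 5.90 (limma-voom), 6.15 (upper quartile), 6.40 (no filter) and 6.19 (mean of at least 1 CPM). Shc3 passed at 6.24, 6.14, 6.10 and 6.05 in the first 4 of these and at 6.44 without a filter. Shc2 passed at 1.58 and 1.55 in the first pair. Left-out tumors gave ranges of 4.58 to 7.09 for Shc3, 5.53 to 7.26 for Shc4 and 1.50 to 1.71 for Shc2. With a dFLEx tumor left out, none of these members passed in edgeR (lowest adjusted p = 0.0817, Shc4 without 170025). Leaving out a KP tumor leaves 3800 or 3802 alone in that group, so those fits give no spread among KP tumors. Shc1 turned positive with limma-voom (0.11) and ranged from -0.86 to 1.94 with a tumor left out, the ends being without 3802 and without 3800; it was 0.18 without 170019 and 0.16 without 170024.

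Without division by length the Shc4 share differed by 47.8 points in place of 37.5. The difference in the Shc2 share ranged from -3.51 points without 3800 to 1.67 without 3802, and the log2 ratio of family sums from 0.63 without 170025 to 3.28 without 3800, against 1.58. The median log2 fold change of all genes was -0.18 with TMM, -0.26 with DESeq2 size factors, -0.34 with the upper quartile and -0.47 with library totals, and no member changed sign under these scalings. The cause of these shifts was not tested.

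Duplicate numbers mark splits of the RNA of 1 tumor and pair no animals: over 6 pairs of tumors the correlation across 15264 genes of the difference between duplicates ran from -0.02 to 0.10. With the duplicate number as a replicate block, 2476 genes were called, with Shc2 at 1.57, Shc3 at 6.37 and Shc4 at 6.10, all past the threshold.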
